A study of Sus scrofa domesticus with 4 samples.

Results

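The heat shock chaperones and the cyclophilin PPIA were followed through 25 microarray probes of 6 genes, out of 43603 non-control probes and 3029 named genes on the array. The probes were chosen by their RefSeq accession, which had to map to PPIA, HSP90AA1, HSPA8, HSPH1, HSPD1 or HSPB1, and the rule reads no intensity. All 6 genes were found, with 2 probes for PPIA, 6 for HSP90AA1, 1 for HSPA8, 2 for HSPH1, 12 for HSPD1 and 2 for HSPB1. All 25 probes were well above background in both channels of all 4 arrays, and none was saturated or marked as an outlier. Probes of one gene read the same RNA samples and are not replicates of the treatment.

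The samples were endometrial explants, pieces of the uterine lining of about 100 mg, from 4 Large White x Polish Landrace gilts aged 7 to 8 months on days 15 to 16 of gestation. After 2 h of preincubation in culture medium, explants received 10 nM orexin B (OXB, a neuropeptide) for 24 h, and the untreated explants stayed in culture for the same time with nothing added. Cultures were kept at 37 °C in 95% O2 and 5% CO2. Each of 4 two-colour arrays carried OXB RNA in one dye and untreated RNA in the other. According to each array's own dye labels, Cy5 marked the OXB RNA of arrays 1 and 3, and Cy3 marked that of arrays 2 and 4. The labels speak of 4 animals but do not link them to arrays, and the p-values therefore measure the spread between 4 arrays, which may be partly technical. Explants are mixed tissue kept outside the animal, in which fewer cells of a type and less RNA per cell cannot be told apart.

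Molecular chaperones bind unfolded or newly made proteins and help them to fold, to assemble or to stay soluble under stress. HSP70 proteins work in ATP-driven cycles with J-domain partners and exchange factors, HSP90 acts late on clients such as steroid hormone receptors, and chaperonins enclose proteins in a chamber. Cyclophilins speed the turning of the peptide bond before proline, and PPIA, the cytosolic cyclophilin A that binds cyclosporin, is a frequent reference gene in quantitative PCR. Heat shock factor 1 drives many of the chaperone genes in stressed cells.

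The Cy5 channel held 82.4% to 86.7% of non-control spots above background on arrays 1, 3 and 4 and 46.8% on array 2, the only one with a different scan day. The Cy3 shares were 27.8% to 36.2%. Markers of uterine epithelium and stroma were measured, with 6 of 12 and 4 of 10 listed genes tested. No B or plasma cell marker passed the filter for testing, and no red blood cell marker had a probe named through RefSeq. A ratio below is the log2 ratio of OXB over untreated, so that a positive value means more RNA in the OXB explants, and ± is the moderated standard error of the limma fit. Every array carries one such ratio, and the number of arrays limits the precision.

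None of the 25 probes passed limma's test of OXB against untreated at an adjusted p of 0.05, where 0% of the 13783 tested probes passed and the smallest adjusted p was 0.999. At an unadjusted p under 0.05 there was 1 of 25 probes, a PPIA probe, beside 3.6% of all tested probes. Fitted ratios ran from -0.32 to 0.51 with a median of 0.10, beside 0.02 for all tested probes. Of the 25 probes, 6 had a ratio below 0, beside 46.9% of all tested probes, but 12 of the 25 belong to HSPD1 alone. The same sign appeared on 4 of 4 arrays for 2 of 25 probes, beside 7.41% of all tested probes. Both of them, one of PPIA and that of HSPA8, were higher with OXB, as were 3.74% of all tested probes, and 3.67% were lower on all arrays. With median centring in place of loess, 25 of the 25 probes were above 0, and the median over all tested probes moved to 0.28.

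**Figure D1:**
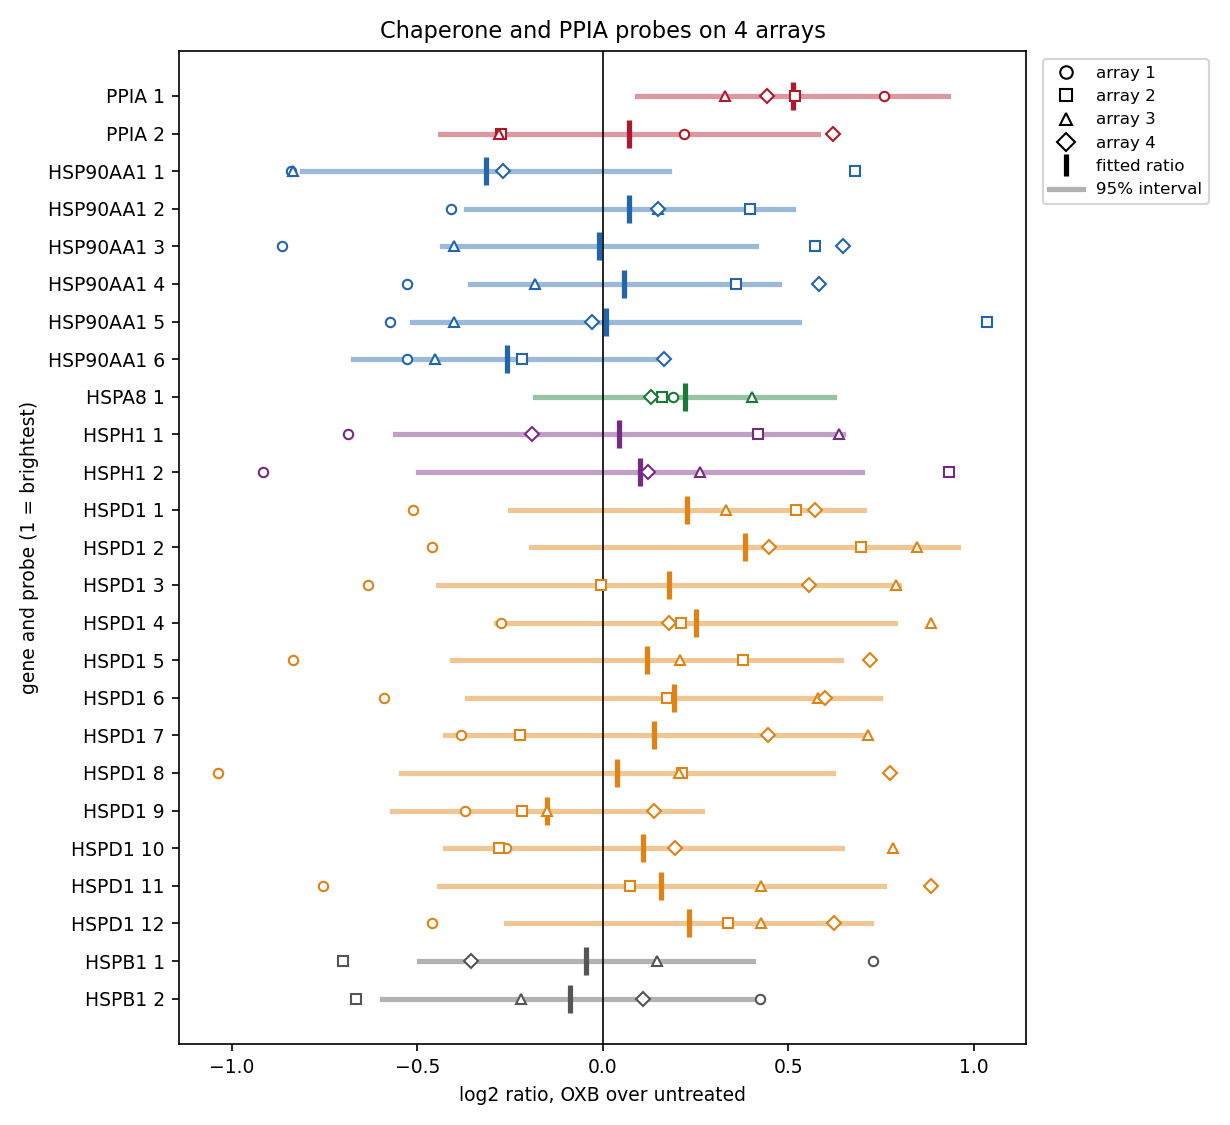
Log2 ratio of OXB over untreated (x axis) for each of the 25 probes (y axis, numbered from the brightest probe of each gene), with the 4 arrays as open symbols, the fitted ratio as a vertical mark and its 95% interval as a bar. The interval leaves out 0 for PPIA probe 1 alone, and no probe passed the adjusted test.

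The fitted ratios of the PPIA probes lay apart, but the difference between the probes did not pass an adjusted test. On probe 1 (A_72_P729108) the normalised log2 level in OXB explants was 16.47, 15.94, 16.28 and 16.09 on arrays 1 to 4, against 15.72, 15.42, 15.96 and 15.65 in untreated explants. OXB was the higher condition on each array, while across arrays the lowest OXB level lay just under the highest untreated level. The ratios were 0.76, 0.52, 0.33 and 0.44. The fitted ratio was 0.51 ± 0.18 (n = 4 arrays), or 1.43-fold, with a 95% interval of 0.09 to 0.93. Limma's unadjusted p was 0.0235, and its adjusted p of 0.999 did not pass.

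On probe 2 (A_72_P440291) of PPIA the OXB levels were 15.84, 15.92, 15.63 and 16.18 on arrays 1 to 4, and the untreated levels were 15.62, 16.20, 15.91 and 15.56. OXB was higher on arrays 1 and 4 and lower on arrays 2 and 3, and the 2 conditions overlapped over most of their range. The ratios were 0.22, -0.28, -0.28 and 0.62. The fitted ratio was 0.07 ± 0.22, with a 95% interval of -0.44 to 0.58, which overlaps that of probe 1.

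**Figure D2:**
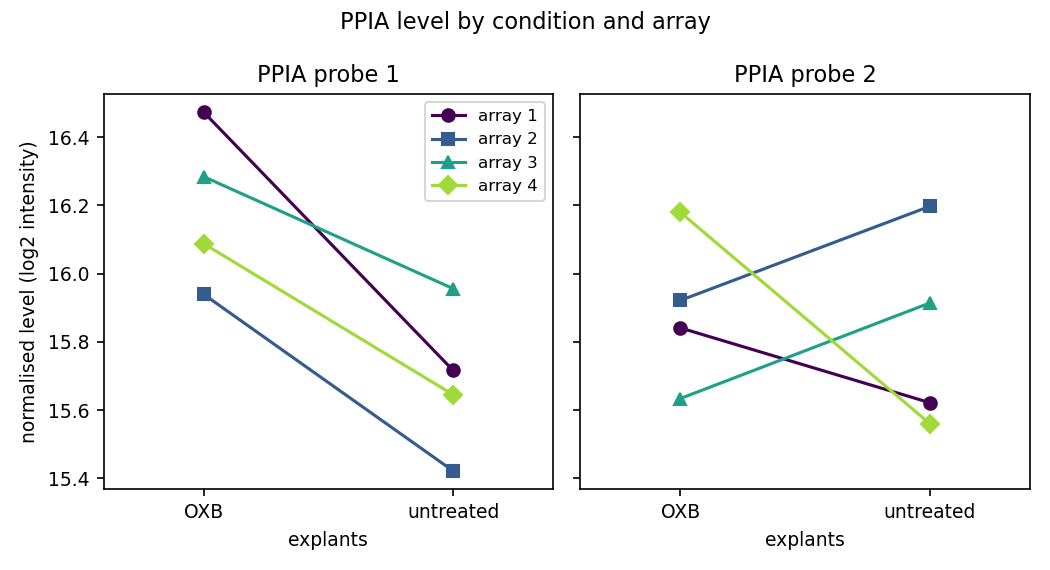
Normalised log2 intensity (y axis) of the PPIA probes in OXB and untreated explants (x axis), with a line for each array. All 4 lines of probe 1 run from a higher OXB level to a lower untreated level, whereas probe 2 has 2 lines of each slope.

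The difference between the PPIA probes was tested in one limma fit over the 770 genes with at least 2 tested probes, as the brightest minus the second brightest. It was 0.54, 0.79, 0.61 and -0.18 on arrays 1 to 4, positive on 3 of 4. The fitted difference was 0.44 ± 0.18, with a 95% interval of 0.0037 to 0.88, and ranked 25th in size among the 770 genes, whose median size was 0.10. Limma's unadjusted p was 0.0486 and its adjusted p was 0.877. None of the genes (0%) passed the adjusted test, and 3.38% had an unadjusted p under 0.05. The difference was 0.20 without array 2 and 0.68 without array 4, with an adjusted p of 0.864 and 0.140.

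The same PPIA spots gave other values under the scanner software's own correction, from which the authors' value table was made. There probe 1 stood at 0.74, 0.02, -0.09 and 0.73 on arrays 1 to 4 and probe 2 at 0.66, -0.43, -0.10 and 0.48. Arrays 1 and 4 were higher with OXB on both probes, arrays 2 and 3 were near or below 0, and the same sign on 4 of 4 arrays was lost for probe 1. The fitted ratios were then 0.35 for probe 1 and 0.15 for probe 2, 0.20 apart. With median centring in place of loess they were 0.96 and 0.48, with a median of 0.28 over all tested probes. The PPIA spots lay at the bright end of the array, where 98.0% and 97.9% of tested probes were dimmer on average, and the part of brightness in these shifts was not tested. Before normalisation, the signal of probe 1 less background was 235896 in OXB (Cy5) and 19108 in untreated RNA (Cy3) on array 1. On array 3 it was 184227 and 18235. With OXB in Cy3 it was 55460.5 in OXB and 89466.5 in untreated RNA on array 2, and 37114.5 and 76960 on array 4. Cy5 was thus the brighter channel on each array.

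The steadiness of PPIA over arrays depended on the probe and on the normalisation. Under loess the SD of the 4 ratios was 0.18 for probe 1, and 7.27% of all tested probes had a smaller one. For probe 2 it was 0.43, with 49.1% of tested probes below it. On the scanner software's ratio the SD was 0.44 for probe 1 and 0.51 for probe 2, and 42.9% and 51.8% of tested probes had a smaller one. A small SD says that OXB and untreated kept the same distance on each array, not that this distance was 0.

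Of 25 symbols listed as common qPCR references, 14 genes were tested, each on its brightest probe, and none passed limma's adjusted test. PPIA probe 1 had the largest ratio in size of the 14 under loess and the second smallest SD, but on the scanner software's ratio its SD ranked 10th from the smallest. Next came the glycolytic enzyme gene GAPDH at 0.41 ± 0.23 and the MHC class I light chain gene B2M at -0.40 ± 0.19. The ribosomal protein gene RPL32 stood at 0.33 ± 0.18, the tubulin gene TUBB at 0.32 ± 0.19 and the lysosomal enzyme gene GUSB at 0.28 ± 0.23. GAPDH had array ratios of 1.22, 0.42, 0.49 and -0.49, so that its SD of 0.70 was wider than its mean. RPL32 had the smallest SD under loess, 0.16, with ratios of 0.26, 0.43, 0.50 and 0.14, all above 0. Fitted ratios of other reference genes also varied between probes. The fitted ratios ran from -0.11 to 0.40 over the 7 probes of RPL32, from -0.055 to 0.40 over the 4 of TUBB and from -0.17 to 0.44 over the 18 of EEF1A1.

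On their brightest probes the other 8 reference genes stood between -0.13 and 0.12. Nearest to 0 were the ubiquitin gene UBB at 0.00 ± 0.18 with an SD of 0.23, whose other probe stood at -0.21, and the ribosomal protein gene RPL13A at -0.06 ± 0.17 with an SD of 0.28. The ribosomal stalk gene RPLP0 stood at 0.09 ± 0.17 (SD 0.24), the elongation factor gene EEF1A1 at 0.09 ± 0.19 (SD 0.35) and the ribosomal protein gene RPS18 at 0.10 ± 0.19 (SD 0.46). HPRT1, of purine salvage, stood at 0.12 ± 0.19 (SD 0.29) and the glycolytic enzyme gene PGK1 at -0.13 ± 0.17 (SD 0.39). The topoisomerase gene TOP2B, at 0.09 ± 0.29, had the widest SD, 1.30, with ratios of -1.56 on array 1 and 1.56 on array 2. On the scanner software's ratio the order changed, with B2M at -0.36 ahead of PPIA at 0.35, RPL32 down to 0.094, TUBB down to 0.14, and UBB at -0.18 and HPRT1 at -0.17 below 0.

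**Figure D3:**
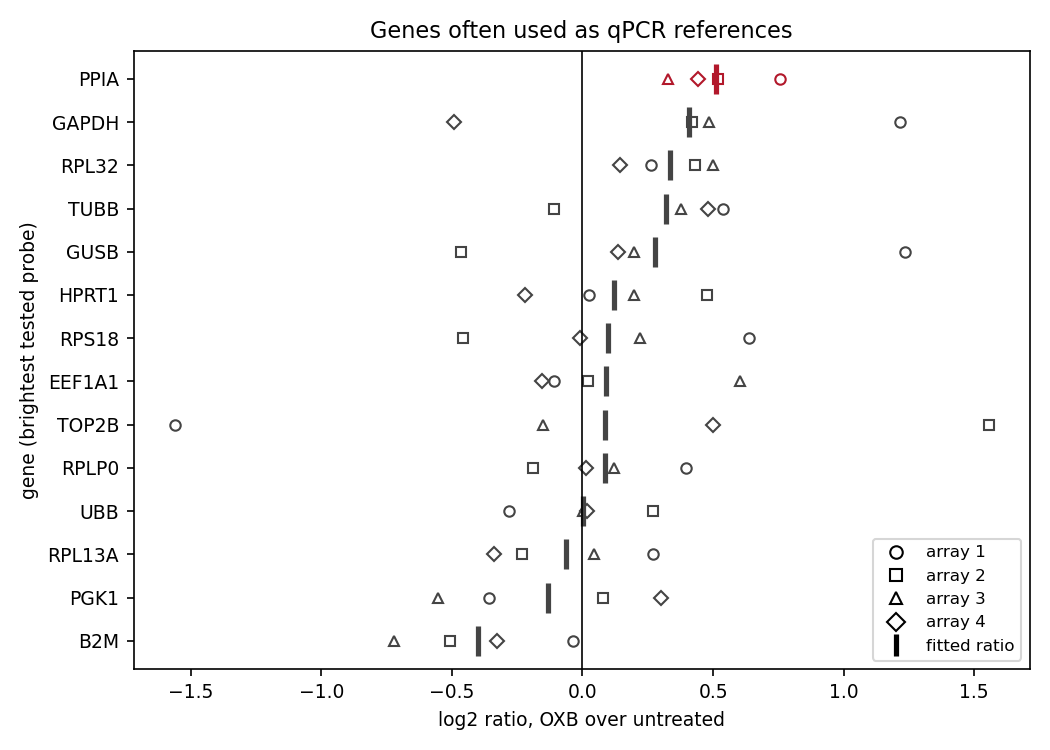
Log2 ratio of OXB over untreated (x axis) on the brightest tested probe of 14 genes often used as qPCR references (y axis, ordered by fitted ratio), with arrays as open symbols and the fitted ratio as a vertical mark. PPIA, in red, has its 4 arrays between 0.33 and 0.76, and TOP2B spans -1.56 to 1.56.

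Among the 1603 other named genes with a value on all arrays, the 3 with the ratios most like those of PPIA probe 1 were VDAC2, PFDN6 and SRPK3. Likeness was the root mean square difference over the 4 arrays, with a value of 0.15 for VDAC2, a mitochondrial outer membrane channel gene, 0.15 for the prefoldin subunit gene PFDN6 and 0.17 for the protein kinase gene SRPK3. Their fitted ratios were 0.46, 0.39 and 0.48. These were the highest over the 2 probes of VDAC2, which began at 0.25, and the 3 of SRPK3, which began at 0.21. PFDN6 had 1 probe. With 4 arrays this is a description of values that lie close together.

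HSPA8 encodes the constitutive cytosolic HSP70, which folds new proteins and uncoats clathrin vesicles, and had 1 probe (A_72_P061586). Its level in OXB explants was 15.15, 15.81, 15.46 and 14.49 on arrays 1 to 4, against 14.96, 15.65, 15.05 and 14.36 in untreated explants. The arrays differed by more than the conditions, and on each array OXB was slightly higher. The ratios were 0.19, 0.16, 0.40 and 0.13, with a fitted ratio of 0.22 ± 0.17 and a 95% interval of -0.18 to 0.62. The SD of the ratios, 0.12, was the smallest of the 25 probes, and 2.49% of all tested probes had a smaller one. On the scanner software's ratio HSPA8 was again above 0 on all arrays, from 0.05 to 0.32, with a fitted 0.21. Limma's unadjusted p was 0.238, or 0.339 on the scanner's ratio.

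HSPH1, an HSP110 protein that exchanges the nucleotide of HSP70, moved in opposite ways on different arrays. Probe 1 (A_72_P035611) had ratios of -0.69, 0.42, 0.64 and -0.19, and probe 2 (A_72_P591989) had -0.92, 0.93, 0.26 and 0.12. Array 1 was the lowest on both, and array 2 or 3 the highest. The fitted ratios were 0.04 ± 0.26 and 0.10 ± 0.25, with intervals reaching from -0.56 to 0.70. The SDs, 0.60 and 0.76, exceeded those of 72.1% and 85.1% of all tested probes. The level of probe 2 was 10.46, 12.36, 11.65 and 11.03 in OXB explants and 11.38, 11.42, 11.38 and 10.90 in untreated explants, so most of the spread was on the OXB side.

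HSP90AA1 encodes the stress-inducible cytosolic HSP90, which keeps steroid receptors and kinases ready to be activated. Its brightest probe (A_72_P700356) had an OXB level of 14.67, 15.00, 14.62 and 14.93 on arrays 1 to 4 and an untreated level of 15.51, 14.32, 15.45 and 15.20. OXB was lower on arrays 1, 3 and 4 and higher on array 2. The ratios were -0.84, 0.68, -0.83 and -0.27, and the fitted ratio was -0.32 ± 0.21, with a 95% interval of -0.81 to 0.18. Without array 2 it was -0.55, with a limma adjusted p of 0.9998, and without array 4 it was -0.08.

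The other 5 HSP90AA1 probes stood between -0.26 and 0.07, and the median of the 6 was -0.00. All 6 were lower with OXB on array 1, from -0.87 to -0.41, and 5 of 6 were lower on array 3. On array 2 there were 5 of 6 higher, up to 1.04, and on array 4 there were 4 of 6 higher. Both arrays with lower ratios had OXB in Cy5 and both with higher ratios had it in Cy3. The fit gave this gene a dye term of -0.62 to -0.20, below 0 on 6 of 6 probes, with a median of -0.45 that was larger in size than any of its treatment ratios. The brightest and second brightest probe differed by -0.39 ± 0.17 in limma's fit over genes (adjusted p of 0.877).

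HSPD1, the mitochondrial chaperonin HSP60, had the most probes. Of its 12 probes, 11 had a fitted ratio above 0, with a median of 0.17 and a range of -0.15 to 0.38, and none passed on its own, at an unadjusted limma p between 0.160 and 0.881. The array medians were -0.49, 0.19, 0.50 and 0.56. On array 1 all 12 probes were lower with OXB, from -1.04 to -0.26. On array 4 all 12 were higher, from 0.14 to 0.88, on array 3 there were 11 higher and on array 2 there were 8.

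The second brightest HSPD1 probe (A_72_P610034) had the highest ratio of the 12. Its OXB level was 11.64, 12.11, 12.93 and 12.89 on arrays 1 to 4, against 12.11, 11.42, 12.08 and 12.44 in untreated explants. OXB was lower on array 1 and higher on the other arrays, and the conditions overlapped. The fitted ratio was 0.38 ± 0.24, with an interval of -0.19 to 0.96. The 1 probe below 0 (A_72_P110291) had ratios of -0.37, -0.22, -0.15 and 0.14, with an SD of 0.21 where the other 11 had 0.48 to 0.77.

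Without array 1 the median of the 12 HSPD1 probes was 0.45, and without array 3 it was -0.14, with 3 of 12 probes above 0. Without array 4 it was 0.03. The direction of HSPD1 therefore rested on which arrays entered the fit, and no probe passed the adjusted test in any of these fits.

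**Figure D4:**
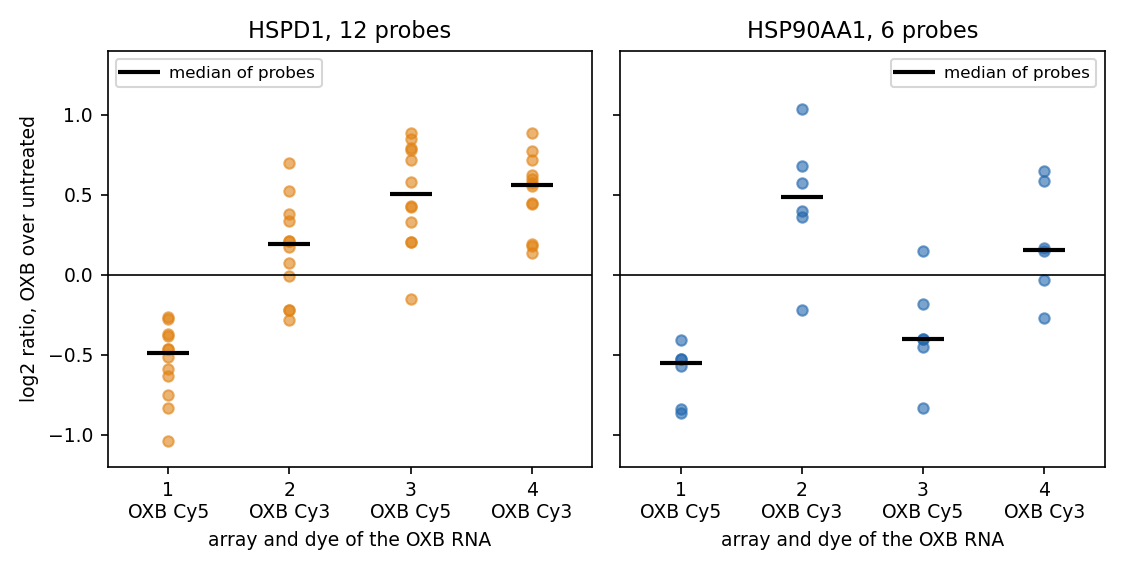
Log2 ratio of OXB over untreated (y axis) of the 12 HSPD1 probes and the 6 HSP90AA1 probes on each array (x axis, with the dye of the OXB RNA), with a bar at the median of the probes. HSPD1 is below 0 on array 1 alone in its medians, while HSP90AA1 is below 0 on both arrays with OXB in Cy5.

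HSPB1, the small heat shock protein HSP27 that holds unfolded proteins without ATP, was higher with OXB on array 1, where HSPH1, HSP90AA1 and HSPD1 were lower. Probe 1 (A_72_P088101) had ratios of 0.73, -0.70, 0.15 and -0.36, and probe 2 (A_72_P679687) had 0.42, -0.67, -0.22 and 0.11. Array 1 was the highest and array 2 the lowest on both probes. The fitted ratios were -0.05 ± 0.19 and -0.09 ± 0.21, with 95% intervals that together span -0.60 to 0.42. The dye term was 0.48 on probe 1 and 0.19 on probe 2, both larger in size than the treatment ratio.

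Dye terms were larger in size than treatment ratios on 17 of the 25 probes, beside 64.0% of all tested probes. At an unadjusted limma p under 0.05 the dye term stood out on 3 of 25 probes, or 12%, beside 14.2% of all tested probes. These were 2 probes of HSP90AA1, with more signal in Cy3, and probe 1 of HSPB1, with more signal in Cy5. PPIA and HSPA8 had dye terms between -0.10 and 0.08. If the labels are read as OXB in Cy5 on all arrays, the dye term becomes the ratio. Each array's own dye labels and the authors' value table give the opposite orientation on arrays 2 and 4. Under this other reading PPIA stands at 0.03 and -0.10 and HSPA8 at 0.08. The medians of HSPD1, HSP90AA1, HSPH1 and HSPB1 are then -0.19, -0.45, -0.25 and 0.34.

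**Figure D5:**
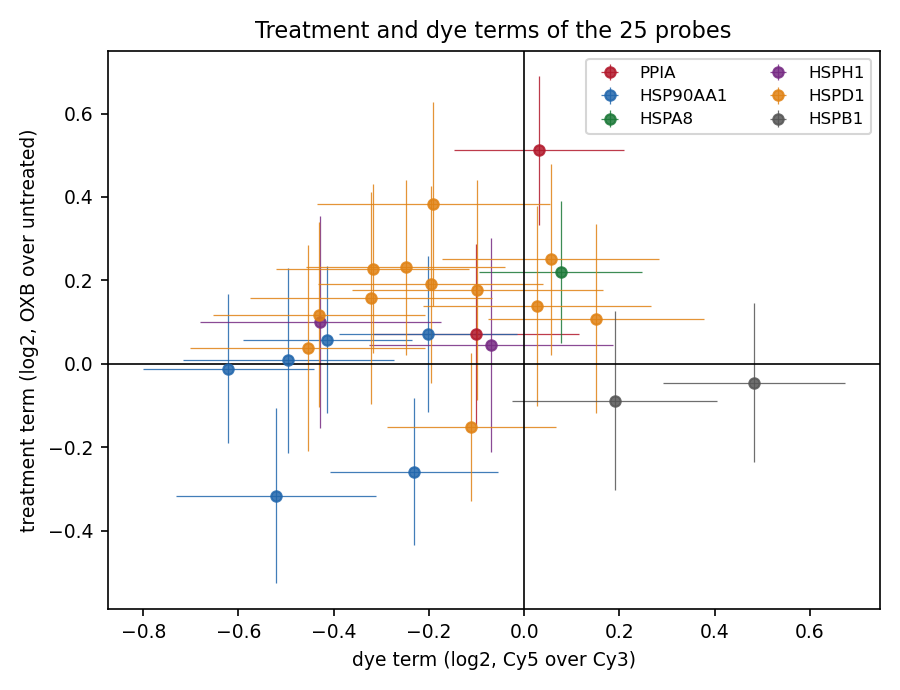
Treatment term (y axis, log2 of OXB over untreated) against dye term (x axis, log2 of Cy5 over Cy3) of the 25 probes, coloured by gene, with moderated standard errors as bars. The 6 HSP90AA1 probes lie left of 0 and the 2 HSPB1 probes right of 0, while PPIA probe 1 stands highest at 0.51 with a dye term of 0.03.

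Partners of these chaperones were taken from lists of genes of the same pathways, each gene on its brightest tested probe, and none of their genes passed limma's adjusted test. Some lists also hold member genes. Over the chaperone, cyclophilin, heat shock factor and reticulum lists, 27 genes other than the members were tested. Of these 8 were above and 19 below 0, with a median of -0.17, beside 46.9% of all tested probes below 0. Of 6 tested chaperonin and prefoldin genes, HSPD1 itself among them, 6 were above 0, with a median of 0.21, or 0.19 above all tested probes. HSPE1, the lid of the HSPD1 chamber, stood at 0.29 ± 0.19 with 4 of its 4 probes above 0. It was lower with OXB on array 2, from -0.42 to -0.12, and higher on array 1, from 0.41 to 0.62, where HSPD1 was lower. PFDN6 stood at 0.39 ± 0.17, with ratios of 0.61, 0.31, 0.38 and 0.28, and CCT3, a subunit of the cytosolic chaperonin, at 0.19 ± 0.21. On the scanner software's ratio 5 of 6 were above 0, and without array 4 it was 5 of 6 with a median of 0.096. With all arrays read as OXB in Cy5 it was 3 of 6.

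J-domain genes and endoplasmic reticulum genes lay on the other side. All 6 tested J-domain genes were below 0, with a median of -0.27, among them DNAJC12 at -0.53 ± 0.31, the HSP70 partner DNAJB1 at -0.32 ± 0.18, DNAJC3 at -0.29 ± 0.19 and DNAJB11 at -0.25 ± 0.22. On the scanner's ratio it was 5 of 6. Of 9 endoplasmic reticulum chaperone and stress genes, which share 2 genes with the J-domain list, 9 were below 0, with a median of -0.29. The reticulum HSP90 gene HSP90B1 stood at -0.75 ± 0.39 on its brightest probe, the lowest of its 8 probes, whose median was -0.33 and whose highest was -0.030. Leaving out each array in turn gave -1.41 to -0.10 on that probe. The stress transcription factor genes XBP1 and ATF4 stood at -0.41 ± 0.21 and -0.30 ± 0.18, and the disulfide isomerase gene PDIA4 at -0.39 ± 0.20. With median centring 5 of 6 J-domain and 8 of 9 reticulum genes were above 0, but their medians stayed 0.20 and 0.22 under that of all tested probes (differences of -0.20 and -0.22).

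Array 1 had the lowest values in both lists, with medians of -0.95 for J-domain and -0.89 for reticulum genes, against 0.03 and -0.02 on array 2, -0.18 and -0.24 on array 3, and 0.08 and 0.10 on array 4. Arrays 1 and 3, with the lower medians, both had OXB in Cy5. With all arrays read as OXB in Cy5, 4 of 6 J-domain and 8 of 9 reticulum genes were below 0. Their medians were then -0.26 and -0.29, about those of the main fit, and dye and treatment were not told apart further. Without array 1 the list medians were -0.077 and -0.11, and without array 3 they were -0.44 and -0.48. The 8 probes of HSP90B1 were all low on array 1, from -3.37 to -1.79, and all high on array 2, from 0.65 to 1.48. Their dye terms ran from -1.31 to -0.78. Of 6 epithelial marker genes 4 were below 0, with array medians of -0.69, -0.51, -0.24 and 0.52. The log2 of their summed linear levels ran from 15.70 to 16.71 in OXB and from 16.08 to 17.09 in untreated explants. Sums of the lists that follow are given the same way, and the brightest marker weighs most in them. Of the macrophage markers 4 of 5 were below 0, with a median of -0.59 and summed levels of 12.33 to 13.02 in OXB and 12.68 to 13.80 in untreated explants. All 4 T and NK cell markers were below 0, with a median of -0.26 and sums of 11.12 to 12.74 in OXB and 11.09 to 13.30 in untreated explants. All 4 stromal markers were above 0, with a median of 0.22 and sums of 14.16 to 15.47 in OXB and 14.01 to 15.42 in untreated explants. Their array medians were 0.69, 0.23, 0.85 and -0.44, so that array 4 went the other way. Below 0 were also 3 of 3 smooth muscle, 4 of 5 endothelial, 3 of 4 granulocyte and 2 of 3 gland secretion markers. The gland secretion ratios ran from -0.14 to 0.77, so that the largest in size was above 0. Trophoblast markers were split, with 2 above and 2 below 0, a median of 0.10 and a range of -0.42 to 1.14. None of these markers passed limma's adjusted test. Of all tested probes 46.9% were below 0. The part of these cell types in the chaperone ratios was not tested.

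The list of heat shock factor genes and classical targets includes the members HSP90AA1, HSPA8, HSPH1, HSPD1 and HSPB1. Of its 13 tested genes, 6 were above and 7 below 0, with a median of -0.00. With median centring 13 of 13 were above 0, but the median of all tested probes was then 0.28. The list median of 0.35 lay 0.074 above it. The largest ratio among them was that of FKBP4, a steroid receptor co-chaperone, at 0.34 ± 0.27, followed by DNAJB1. The inducible HSP70 genes HSP70.2 and HSPA6 stood at -0.20 ± 0.21 and 0.11 ± 0.21. Of 12 genes listed for tissue damage and early response, 3 were tested. DDIT4, JUN and HMOX1 stood at -0.73 ± 0.17, -0.10 ± 0.21 and -0.09 ± 0.18, and limma's unadjusted p was under 0.05 for DDIT4 alone. The part of tissue handling in these ratios was not tested. Over the 4 probes of DDIT4 the fitted ratios ran from -0.84 to -0.24. Among HSP90 co-chaperones, UNC45A stood at 0.18 ± 0.20, and the single other cyclophilin tested, PPIL6, stood at -0.25 ± 0.20.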

How the data were processed

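The authors deposited spot intensity values of both channels for an Agilent array (design 026440), read with Feature Extraction 10.7.3.1, per the file headers. The deposited files also give the software's corrected log10 ratio, red over green. The deposited value table holds log2 ratios. On tested probes they matched the log10 ratio after conversion (correlation 1, -1, 1 and -0.9999 on arrays 1 to 4), so the authors turned arrays 2 and 4. Its columns are not centred, with medians of 0.183, 0.292, 0.011 and 0.031.

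Median signal and local background were corrected by normexp (offset 50) and loess, in which control spots and outliers had no weight (limma 3.58.1, R 4.3.3). A probe was tested if either condition's channel was well above background on all 4 arrays. Of these, 13783 were kept and 2 left out, whose remaining arrays had a single dye orientation. Each fit had a treatment and a dye term, 2 residual and 5.09 prior degrees of freedom. P-values are two-sided, with Benjamini-Hochberg adjustment over all tested probes. Levels were taken after Aquantile. Probes were named through RefSeq accessions of Sscrofa11.1 (6700 probes). The array files name no build, so no coordinates are given, and sequences were not used here.

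Named genes are all member probes, up to 4 genes with the largest ratio in size per pathway list, all tested reference genes (1 gene is not reported here) and the 3 most like PPIA. The members and lists were chosen with earlier results of these data known. The fit was tested on simulated data with changes larger than any member ratio, so that test does not speak to changes of the size seen here. Alternatives covered background, normalisation, starting values, dye term, dye labels, filters, outlier spots and leaving out each array.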

Additional observations from a re-analysis of the deposited data

Results flagged for a closer look

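In each set of 4 array values (25 probes with a ratio, an OXB level and an untreated level, and the ratios of the other named genes), the gap between an extreme array and its nearest neighbour was compared with Dixon's 95% critical value. Chance marks about 1 in 20 such sets, and 2 sets (1.87%) were marked, none of them among the 57 sets of ratios. The untreated level of HSPH1 probe 2 (A_72_P591989) was 10.90 on array 4, where the other arrays had 11.38 to 11.42. The OXB level of HSPD1 probe 6 (A_72_P619640) was 10.43 on array 1, where the other arrays had 11.63 to 11.85.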

How the results depend on the processing

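No member probe passed the adjusted test in any of the 13 alternatives. Over all tested probes the count was 0 to 17 when an array was left out (17 without array 2) and 0 otherwise. Results that kept their direction in all 13 alternatives were those of PPIA probe 1 and HSPA8 and the differences between probes of PPIA and HSP90AA1. With all arrays read as OXB in Cy5, however, PPIA probe 1 fell to 0.031 and HSPA8 to 0.076, near 0. The differences were then 0.13 for PPIA and -0.32 for HSP90AA1. Each ratio is a comparison within one array, so the fit is paired by array and no further block was fitted. With median centring the median of all tested probes was 0.28, and HSP90AA1 probes 1, 3 and 6 turned to 0.11, 0.36 and 0.075, HSPD1 probe 9 to 0.14 and the HSPB1 probes to 0.33 and 0.25. On the scanner software's ratio and in the authors' value table alike, HSP90AA1 probes 3 and 5 turned to 0.081 and -0.18, and the differences between probes of HSPD1 and HSPB1 to 0.066 and -0.085. The cause of these turns was not tested. With all arrays read as OXB in Cy5, the ratios turned to -0.10 for PPIA probe 2, to -0.20, -0.41 and -0.49 for HSP90AA1 probes 2, 4 and 5, to -0.070 and -0.43 for HSPH1, to -0.32, -0.19, -0.10, -0.43, -0.20, -0.45, -0.32 and -0.25 for HSPD1 probes 1, 2, 3, 5, 6, 8, 11 and 12, and to 0.48 and 0.19 for HSPB1. This reading turns the signs of arrays 2 and 4, so that the dye term becomes the ratio. There the difference for HSPH1 was 0.36 and 44 genes had probes that differed, against 0. The number of higher probes was then 7, against 19.

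Leaving out each array gave 8 to 19 higher probes of 25. The ranges of results that turned were -0.15 to 0.29 for PPIA probe 2, -0.069 to 0.21, -0.13 to 0.10, -0.028 to 0.14 and -0.26 to 0.27 for HSP90AA1 probes 2 to 5, -0.29 to 0.37 and -0.19 to 0.39 for HSPH1, and -0.19 to 0.10 and -0.28 to 0.10 for HSPB1. For HSPD1 they were -0.18 to 0.53 (probe 3), -0.040 to 0.54 (probe 4), -0.14 to 0.38 (probe 5), -0.10 to 0.48 (probe 6), -0.14 to 0.41 (probe 7), -0.27 to 0.35 (probe 8), -0.15 to 0.37 (probe 10) and -0.14 to 0.45 (probe 11). For the difference of HSPB1 the range was -0.064 to 0.15. Counts over the chaperonin, J-domain and reticulum lists were repeated after the data were seen. Fits on 3 arrays have 1 residual degree of freedom, and a lone array of one orientation is taken to vary like the others.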
